A study of Homo sapiens with 120 samples.

Results

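The comparison concerns what changed between 100 µM and 200 µM formaldehyde after 4 h in TK6 cells. It set the 3 arrays labelled 200 µM for 4 h directly against the 3 labelled 100 µM for 4 h, chosen by their titles, which makes 6 of the series' 120 arrays. TK6 is a human B lymphoblast line with a working p53 response. In the series, TK6 cultures were left untreated or exposed to formaldehyde, to alkylating agents or to spindle poisons, and their RNA was measured on Affymetrix HG-U133 Plus 2 expression arrays. The formaldehyde set holds untreated cultures and cultures given 50, 100 or 200 µM for 4 h or for 24 h, with 3 arrays per group numbered as experiments 1 to 3. Other steps were used for reference: formaldehyde 200 against 100 µM at 24 h, and the alkylating agent methyl methanesulfonate (MMS) at 320 against 160 µM at 4 h. All groups are the same line, and no genotype differs between them.

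Formaldehyde is a small reactive aldehyde, made by normal metabolism and by histone and DNA demethylation, that joins proteins to DNA and DNA strands to each other. Cells answer such damage and the protein damage that comes with it through several programs: p53 switches on arrest and repair genes together with its own inhibitors, ATF4 switches on amino acid and redox genes, NRF2 switches on thiol defence, and heat shock factor switches on chaperones. Immediate early genes such as FOS, JUN and EGR1 are switched on within minutes to hours of many signals, and their transcripts are short lived. Short-lived transcripts follow changes in transcription fastest, while those of ribosomal proteins and respiratory enzymes are long lived.

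Values are log2 signals per gene, a gene being represented by its brightest probe set. The level that dim genes had to reach in at least 3 arrays was 6.183, and where a group mean lies under it the size of a difference is uncertain. Of 14023 genes tested, 34.9% (4888 genes) were called at an adjusted p under 0.05 in limma, and every adjusted p given is from that model. Differences are log2 values at 200 µM minus 100 µM, each with its standard error (SE) from the limma fit. The fit has 3 arrays per dose and estimates the spread from all 24 formaldehyde arrays. The median difference over all tested genes was 0.05. Arrays of one dose correlated at 0.996 to 0.997, and arrays of 200 with 100 µM at 0.977 to 0.982. The ratio of 3′ to 5′ control probe sets, a sign of RNA quality, differed by -0.0033 log2 for ACTB (exact two-sided permutation p = 0.8, smallest possible 0.1) and by 0.0036 for GAPDH (exact p = 0.7). Among the untreated arrays, experiment 3 had an ACTB 3′ minus 5′ value of 0.68, against 0.30 and 0.35 in the others. The line's label held in the arrays, where 25 of 30 B cell genes lay above the median probe set in untreated cells, against 8 of 17 for T and NK cells and 5 of 13 for monocytes and granulocytes. RMA brings all arrays to a like distribution, so each value is relative to the rest of its array, and a change in RNA per cell cannot be told apart from a change in the number of cells of a kind.

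Similar numbers of genes were called in each direction in the step from 100 to 200 µM, but most of the large changes were falls. 2438 genes were higher at 200 µM (17.4% of those tested) and 2450 lower (17.5%), but only 50 (0.357%) were at least 2-fold higher while 340 (2.42%) were at least 2-fold lower. In 3498 genes (24.9%) all 200 µM arrays lay above all 100 µM arrays, and in 2872 (20.5%) all lay below. With the mean of a gene's probe sets in place of the brightest one, 17 genes were at least 2-fold higher and 183 lower. Of 157 genes chosen by the naming rule and tested that way too, 74 had a difference over 1.5 times smaller, REV3L with the opposite sign.

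The rises were of 2 kinds by gene length. Of the 50 genes at least 2-fold higher, 11 were short genes of 2585 to 14687 bp, and 39 (78.0%) were longer than 150 kb, against 9.52% of all tested genes. All 11 short genes were called above the untreated level at 200 µM, where 29.6% of tested genes were; that comparison and the step share the 200 µM arrays. All 39 long genes had been called below the untreated level at 100 µM, where 19.8% of tested genes were; that comparison and the step share the 100 µM arrays. Annotated gene length is the whole span including introns.

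Among the short genes the largest rise was that of CCNG2, which encodes cyclin G2, an atypical cyclin linked to growth arrest. Its signal was 7.40, 7.46 and 7.18 in untreated cells, 8.59, 8.11 and 8.25 at 100 µM, and 10.35, 10.34 and 10.25 at 200 µM in experiments 1, 2 and 3. The 200 µM arrays lay far above the others without overlap, a 4.00-fold rise over 100 µM (2.00, SE 0.141, adjusted p = 1.72e-10). RGS1, a GTPase activator that dampens G protein signalling in lymphocytes, was at 9.89, 9.91 and 10.07 at 100 µM and at 11.69, 11.79 and 11.91 at 200 µM. That is a 3.58-fold rise (1.84, SE 0.0920, adjusted p = 7.38e-13), against a change of 0.37 from untreated to 100 µM. CD69, an early activation antigen of lymphocytes, went from 7.67, 7.62 and 7.41 to 9.35, 9.40 and 9.41. For CD69 nothing had been called at 100 µM (-0.21 against untreated, adjusted p = 0.0929), and the step was 1.82 (SE 0.0983, adjusted p = 2.33e-12). FOS, a subunit of the AP-1 transcription factor, lay at 5.91, 6.17 and 5.61 untreated, 6.13, 6.17 and 5.99 at 100 µM, and 7.73, 7.75 and 7.69 at 200 µM. Its untreated and 100 µM arrays overlapped and lay under 6.183. FOS was not called at 100 µM against untreated (0.20, adjusted p = 0.198) and rose by 1.62 in the step (SE 0.121, adjusted p = 4.11e-10). JUN, its partner in AP-1, had begun to rise at 100 µM (0.75) and rose by a further 1.53 (SE 0.0723, adjusted p = 3.18e-13). HES1, a repressor known as a Notch target, rose by 1.46 from 100 to 200 µM (SE 0.0818; 0.92 with the mean of probe sets) after a difference of 0.16 between 100 µM and untreated. The arrestin-like adaptor ARRDC3 rose by 1.09 (SE 0.118) after 2.03 at 100 µM.

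The 12 genes in the plot of signal by dose show the shapes side by side.

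**Figure D1:**
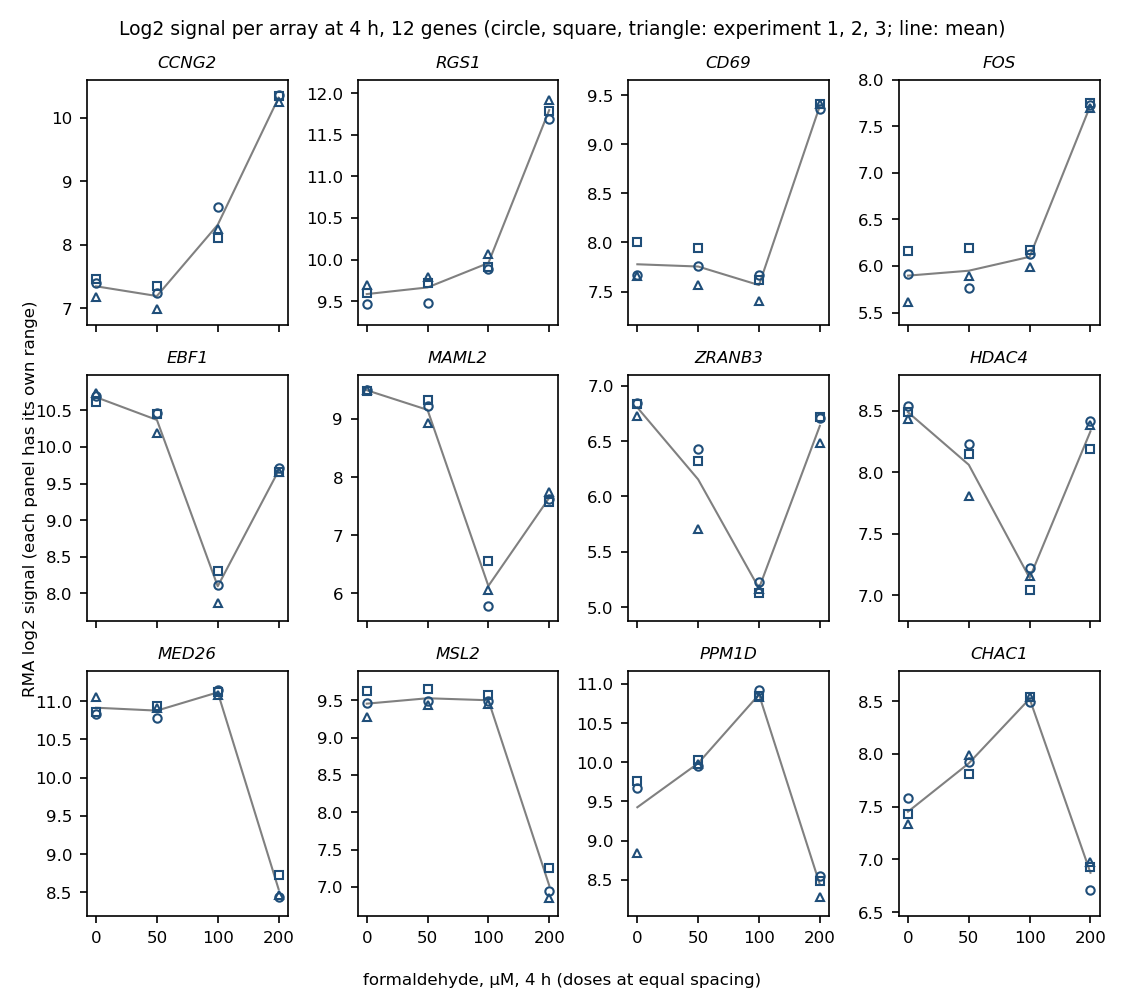
RMA log2 signal of 12 genes after 4 h at 0, 50, 100 and 200 µM formaldehyde, with 1 symbol per array (circle, square and triangle for experiments 1, 2 and 3) and a line through the means of 3 arrays. CCNG2, RGS1, CD69 and FOS rise from 100 to 200 µM; EBF1, MAML2, ZRANB3 and HDAC4 fall to 100 µM and lie higher at 200 µM; MED26 and MSL2 fall at 200 µM; PPM1D and CHAC1 rise to 100 µM and lie below the untreated mean at 200 µM.

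To let the reader compare the start regions of genes that turn sharply in this step, the 250 bases before the annotated start are shown for genes with large differences each way, and for FOS and EGR1, which were added after their values were seen. They are RefSeq sequences of build GRCh38.p14, 5′ to 3′ on the gene's strand, and capitals mark matches to the motifs searched. CCNG2 lies at chr4:77156957-77157206 on the plus strand, RGS1 at chr1:192575523-192575772 on the plus strand, FOS at chr14:75278578-75278827 on the plus strand, EGR1 at chr5:138465229-138465478 on the plus strand, MED26 at chr19:16628205-16628454 on the minus strand and MSL2 at chr3:136196336-136196585 on the minus strand.
CCNG2: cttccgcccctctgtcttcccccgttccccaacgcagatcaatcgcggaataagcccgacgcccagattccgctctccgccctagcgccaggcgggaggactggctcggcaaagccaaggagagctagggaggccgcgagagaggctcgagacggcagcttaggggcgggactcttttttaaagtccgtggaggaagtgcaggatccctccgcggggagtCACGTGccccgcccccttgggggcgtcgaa
RGS1: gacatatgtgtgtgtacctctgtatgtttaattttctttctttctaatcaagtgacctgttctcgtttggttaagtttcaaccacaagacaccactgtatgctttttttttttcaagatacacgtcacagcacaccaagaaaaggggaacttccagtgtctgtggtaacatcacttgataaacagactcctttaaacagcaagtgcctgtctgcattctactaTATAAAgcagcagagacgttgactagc
FOS: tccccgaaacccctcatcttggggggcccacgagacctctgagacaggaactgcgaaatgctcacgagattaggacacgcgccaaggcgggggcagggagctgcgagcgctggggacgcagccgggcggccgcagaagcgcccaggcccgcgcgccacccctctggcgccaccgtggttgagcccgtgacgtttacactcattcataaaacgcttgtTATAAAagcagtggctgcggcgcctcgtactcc
EGR1: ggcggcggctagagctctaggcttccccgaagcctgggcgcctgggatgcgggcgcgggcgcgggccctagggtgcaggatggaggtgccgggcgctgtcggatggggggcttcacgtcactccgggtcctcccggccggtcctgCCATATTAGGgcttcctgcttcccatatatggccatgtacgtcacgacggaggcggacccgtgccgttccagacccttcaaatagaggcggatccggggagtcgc
MED26: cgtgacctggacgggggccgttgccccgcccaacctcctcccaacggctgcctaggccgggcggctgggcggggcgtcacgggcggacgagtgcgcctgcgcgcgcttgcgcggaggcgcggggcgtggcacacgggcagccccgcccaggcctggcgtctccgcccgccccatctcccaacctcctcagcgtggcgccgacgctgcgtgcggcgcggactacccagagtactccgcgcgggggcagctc
MSL2: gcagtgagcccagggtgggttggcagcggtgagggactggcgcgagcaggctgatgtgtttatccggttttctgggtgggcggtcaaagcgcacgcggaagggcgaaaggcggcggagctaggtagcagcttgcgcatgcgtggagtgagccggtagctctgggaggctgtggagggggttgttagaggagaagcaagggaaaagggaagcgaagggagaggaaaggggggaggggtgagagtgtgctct

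The motifs were searched on both strands in the same 250 bases of 11163 tested genes. The E-box CACGTG, found once in CCNG2, was in 8.62% of all these promoters. TATAAA, the TATA box letters, stood 27 bases before the start of RGS1 and 33 before that of FOS, and was in 6.35% of all. The serum response element was searched in narrow spellings only. The first was CCATAT, then any base, then AGG, found in EGR1 and in 0.152% of all. The other was CCTTAT, then free bases, then GG, in 0.493% of all. The EGR1 window also holds a stretch that begins with CCATAT and ends with GG in another spelling. That stretch was left in lower case and not counted, so these shares are not those of the element in general. Other spellings of the element, and any outside the 250 bases, were not searched, so lack of a match does not show its absence. The remaining motifs had no match in the 6 windows: TGACGTCA (cyclic AMP element, 2.77% of all), TGACTCA (AP-1, 2.86%), GAANNTTC (heat shock element, 4.15%), TGACNNNGC (antioxidant element, 12.2%) and CCAAT (34.7%). MED26 and MSL2 held no match to any motif of the search. A match describes letters only.

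The ribosomal RNA precursor gene RNA45SN5, 1 of several near-identical copies whose probes cannot be assigned to 1 copy, was at 9.33, 9.25 and 9.23 at 100 µM and at 10.80, 10.95 and 10.95 at 200 µM. It rose by 1.63 (SE 0.0761, adjusted p = 2.59e-13). The array's own control probe sets for mature 18S ribosomal RNA moved with it: the 3′ set was at 11.20 to 11.26 at 100 µM and 12.15 to 12.33 at 200 µM, a difference of 0.98 (exact two-sided permutation p = 0.1, the smallest possible). The 5′ set of the same RNA differed by 0.26 (exact p = 0.2). The part of carried-over ribosomal RNA in the other differences was not tested.

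The long genes went the other way below this dose. EBF1, a transcription factor that defines the B cell lineage, spans 403997 bp. It was at 10.69, 10.61 and 10.73 in untreated cells, fell to 8.11, 8.31 and 7.88 at 100 µM and stood at 9.72, 9.66 and 9.65 at 200 µM. Its 200 µM arrays lay between the other groups and overlapped neither, with a step of 1.58 (SE 0.0906, adjusted p = 6.03e-12). MAML2, a coactivator of Notch of 366598 bp, was at 9.51, 9.48 and 9.49 untreated, 5.78, 6.56 and 6.05 at 100 µM, and 7.62, 7.56 and 7.74 at 200 µM. Its step was 1.52 (SE 0.154, adjusted p = 5.65e-08), and at 200 µM the difference from untreated was -1.85. The 100 µM means of MAML2 (6.13), ZRANB3 (5.17), MBD5 (6.11), KCNQ5 (5.71) and EPHA3 (4.23) lay under 6.183, so how far they fell and rose again is uncertain. ZRANB3, a DNA translocase that acts at stalled replication forks, was back near its untreated level: 6.85, 6.84 and 6.73 untreated, 5.22, 5.13 and 5.16 at 100 µM, 6.71, 6.72 and 6.48 at 200 µM. The difference between 200 µM and untreated was -0.17 (adjusted p = 0.328), with a step of 1.47 (SE 0.141, adjusted p = 2.37e-08). HDAC4, a histone deacetylase, behaved likewise in its values (8.49 untreated, 7.14 at 100 µM and 8.33 at 200 µM as means; step 1.19, SE 0.108). MBD5, a protein with a methyl-CpG-binding domain, had a step of 1.42 (SE 0.0944), the potassium channel gene KCNQ5 of 1.37 (SE 0.174) and the ephrin receptor gene EPHA3 of 1.35 (SE 0.183). With the mean of probe sets the step was 1.09 for EBF1, 0.95 for MAML2, 0.77 for HDAC4, 0.76 for KCNQ5 and 0.64 for MBD5. ZRANB3 and EPHA3 were not among the genes tested that way. Of the 39 long genes, 22 were still called below the untreated level at 200 µM, 4 were called above it and the rest were not called.

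Over all genes the long bands stood apart, and the share called lower grew with length over the shorter of 5 equal bands. In 5 bands of equal numbers of genes, from short to long, the median step was 0.0525, 0.0274, 0.006, 0.0199 and 0.1481. In the same order 12.8, 11.2, 9.6, 14.5 and 38.9% were called higher, and 12.1, 16.7, 23.7, 24.2 and 10.7% lower. In genes of 200 to 300 kb, 229 of 431 were called higher at 200 than at 100 µM and 14 lower, with a median difference of 0.25. In genes of 20 to 40 kb, 281 of 2728 were higher and 669 lower, with a median of 0.0039. The 200 to 300 kb band had a median of -0.32 from untreated to 100 µM and of 0.0004 from untreated to 200 µM. At 50 µM, whose arrays the step does not use, its median was -0.0899. The step median for that band was 0.29, 0.26 and 0.29 in experiments 1, 2 and 3 taken singly. The 2 dose comparisons share the 100 µM arrays, so their opposite signs are not independent of each other. Spearman's rho between length and the difference, over 14007 genes that share the same arrays, was -0.43 at 100 µM, -0.31 at 200 µM and 0.13 in the step. The bands with limits in kb were added after the values were seen.

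**Figure D2:**
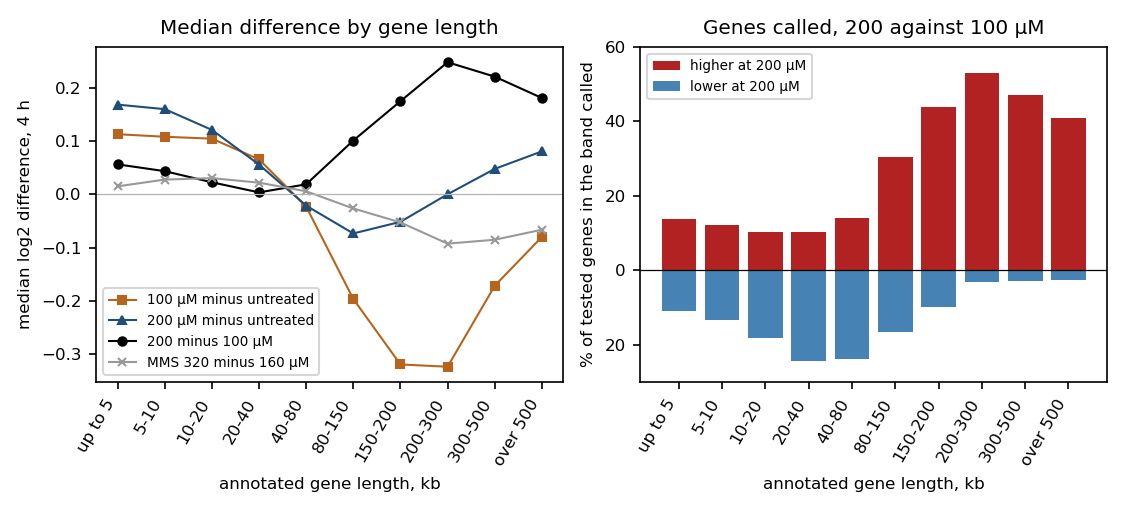
Left, the median log2 difference at 4 h (y axis) by annotated gene length in kb (x axis) for formaldehyde 100 µM minus untreated, 200 µM minus untreated, 200 minus 100 µM, and MMS 320 minus 160 µM; right, the percent of tested genes in each band called higher (up) or lower (down) at 200 than at 100 µM. At 200 to 300 kb the median is -0.32 at 100 µM and 0.25 in the step, and 53.1% of the band's genes are called higher against 3.25% lower.

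Large falls were those of MED26, MSL2 and EPC1, which act in transcription and chromatin and differed by 0.20 or less between 100 µM and untreated. MED26, a subunit of the Mediator complex that helps release paused RNA polymerase II, was at 10.83, 10.86 and 11.06 untreated, 11.15, 11.12 and 11.08 at 100 µM, and 8.43, 8.73 and 8.46 at 200 µM. Its 200 µM arrays lay below all others, 5.96-fold under 100 µM (-2.57, SE 0.0749, adjusted p = 5.78e-16). MSL2, a ubiquitin ligase of a histone acetylation complex, was at 9.49, 9.57 and 9.45 at 100 µM and at 6.95, 7.26 and 6.85 at 200 µM. The fall was 5.59-fold (-2.48, SE 0.0918, adjusted p = 7.6e-15), from a level at 100 µM that differed from untreated by 0.05. EPC1, a subunit of the NuA4 acetyltransferase complex, went from 10.16, 10.24 and 10.19 to 7.69, 7.91 and 7.59. Its brightest probe set fell by 2.47 (SE 0.0750), and of its other 3 bright probe sets 2 fell and 1 rose, from a mean of 8.44 to 9.28. RORA, a nuclear receptor of the clock, had been falling already: 11.13, 10.92 and 10.82 untreated, 9.67, 10.10 and 9.86 at 100 µM, and 7.65, 7.47 and 7.22 at 200 µM. The naming rule also took ST8SIA4, a polysialyltransferase (-2.44), the zinc finger genes ZNF644 (-2.38) and ZNF627 (-2.35), CPEB2, which binds messenger RNA (-2.33), and SOCS5, a suppressor of cytokine signalling (-2.32). NEDD9, a scaffold of focal adhesions (-2.30), the repressor ZEB2 (-2.29) and KLHL20, an adaptor of a ubiquitin ligase (-2.26), belonged to the same 12. The 200 µM means of ZEB2 (4.02), KLHL20 (5.49), SOCS5 (5.51), ST8SIA4 (5.68) and CPEB2 (6.16) lay under 6.183, so these falls are not ranked by size. Of NEDD9's 4 bright probe sets 2 fell and 1 rose, and of ZEB2's 3 bright probe sets 2 fell and 1 rose, from 6.11 to 7.02. With the mean of probe sets the difference was -1.22 for MED26, -1.45 for EPC1, -0.65 for RORA, -0.75 for ST8SIA4, -0.72 for CPEB2, -0.55 for NEDD9, -0.74 for KLHL20, -1.16 for ZNF644 and -1.18 for ZNF627. The 340 genes that fell at least 2-fold had a median length of 38780.5 bp, and 4.41% were over 150 kb. Of them, 329 were called below the untreated level at 200 µM, in a comparison that shares the 200 µM arrays, and 4 above it. Over all tested genes 24.2% were below and 29.6% above. At 100 µM, 103 of the 340 had been called above untreated and 105 below it, where 20.9% and 19.8% of tested genes were. That comparison and the step share the 100 µM arrays.

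Gene lists were set beside the share over all tested genes, 17.4% higher and 17.5% lower with a median of 0.05. They were chosen with earlier results of these data known and carry no test of their own.

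**Figure D3:**
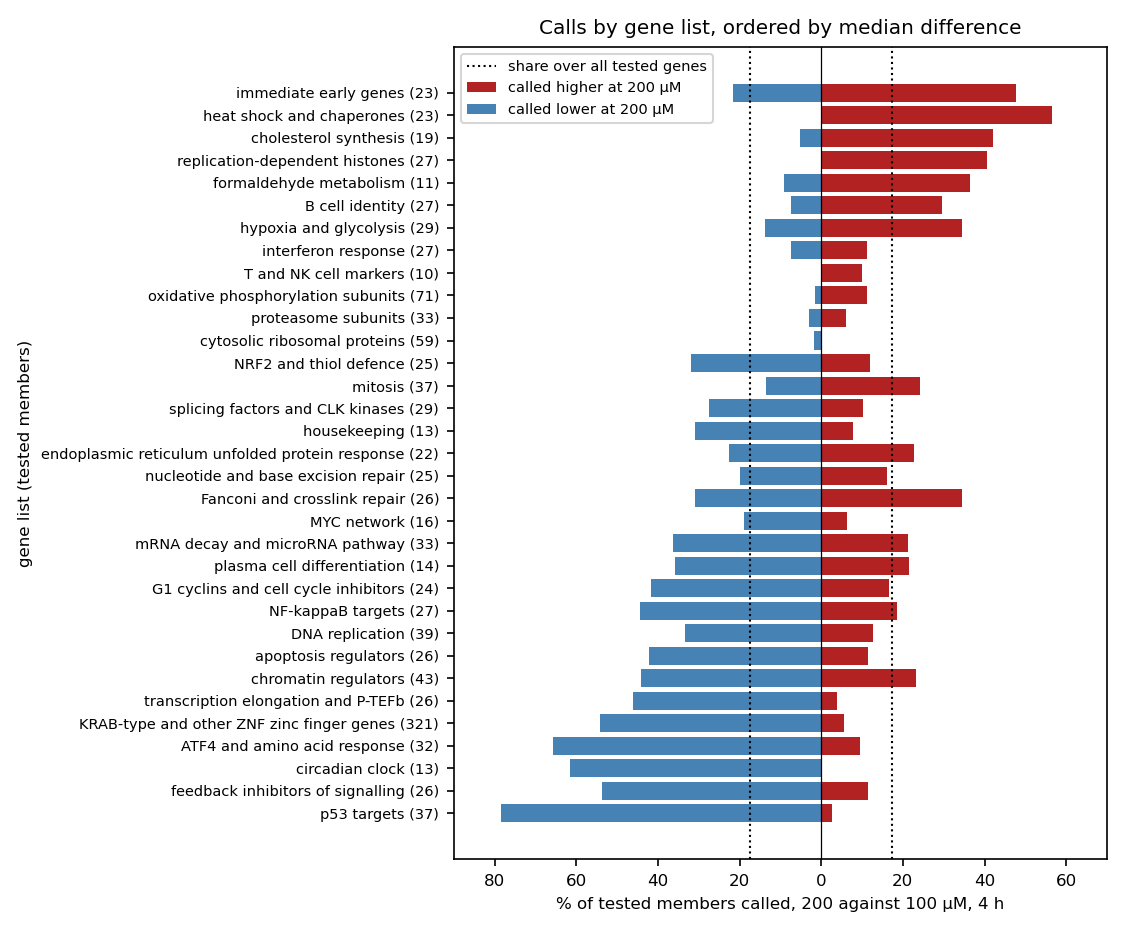
Percent of tested members of each gene list called higher (right) or lower (left) at 200 than at 100 µM at 4 h, lists with at least 10 tested members, ordered by median difference, with the number tested in parentheses and dotted lines at the share over all tested genes. Heat shock genes and histones have calls to the right alone, and p53 targets have 78.4% to the left.

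Immediate early genes were divided by gene: of 23 tested, 11 rose and 5 fell (median 0.20). Besides FOS and JUN, EGR1, a zinc finger factor induced by growth signals, rose by 1.30 (SE 0.135, adjusted p = 7.97e-08; 0.77 with the mean of probe sets), from 6.88, 6.70 and 7.05 to 8.22, 8.05 and 8.26. ATF3, a stress-induced factor, rose by 0.61 (SE 0.149, and 0.30 with the mean of probe sets) after 2.29 at 100 µM. MYC, the growth-promoting factor, fell by 1.08 (SE 0.134, adjusted p = 1.05e-06). Its arrays were at 10.90, 11.08 and 10.93 at 100 µM and 9.89, 10.06 and 9.72 at 200 µM, without overlap. Genes that feed back to dampen signalling went mostly down, with 3 of 26 higher and 14 lower (median -0.38). SOCS1, which blocks JAK kinases, fell by 1.61 (SE 0.0784) and the pseudokinase gene TRIB1 by 1.38 (SE 0.0791). SPRED1, an inhibitor of the Ras pathway, fell by 1.35 (SE 0.0983). The mean of probe sets gave -0.70 for SOCS1, -0.36 for TRIB1 and -0.97 for SPRED1. RGS1 was among the 3 that rose.

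Among the stress programs the calls were upward for chaperones and mostly downward for the ATF4 list. Heat shock and chaperone genes were higher in 13 of 23 and lower in none (median 0.19). The co-chaperones DNAJB9 (1.03, SE 0.0939), DNAJB4 (0.88, SE 0.0861) and DNAJB2 (0.60) led. DNAJB9 also had the largest rise in the list of the endoplasmic reticulum unfolded protein response. DNAJB4 stood at 6.84, 6.61 and 6.87 untreated, 8.40, 8.03 and 8.12 at 100 µM and 9.21, 9.09 and 8.90 at 200 µM, so it rose at both steps. In the ATF4 and amino acid list 21 of 32 fell and 3 rose (median -0.29); 5 rose with the replicate block and 1 without experiment 1. CHAC1, which degrades glutathione, was at 7.58, 7.44 and 7.34 untreated, 8.49, 8.54 and 8.54 at 100 µM and 6.71, 6.93 and 6.98 at 200 µM. Its level at 200 µM lay below that of untreated cells, with a step of -1.65 (SE 0.0825, adjusted p = 7.38e-13). CTH, the enzyme that makes cysteine from cystathionine, fell by 1.58 (SE 0.0872) and the factor CEBPB by 1.25 (SE 0.0600). In the NRF2 and thiol list 8 of 25 fell and 3 rose, with a median of 0.01 (5 fell with the mean of probe sets, 5 rose with all 120 arrays in the fit). NFE2L2, which encodes NRF2 itself, went from 10.87, 10.91 and 10.93 to 9.22, 9.34 and 9.13. That step was -1.67 (SE 0.0997, adjusted p = 1.14e-11), and of the gene's 3 bright probe sets 2 fell and 1 rose. The cystine carrier SLC7A11 fell by 1.05 (SE 0.0976), while HMOX1, heme oxygenase, was at means of 8.94 and 9.05 and was not called (0.11, SE 0.110, adjusted p = 0.475). The zinc sensor MTF1 fell by 1.43 (SE 0.0946). The unfolded protein sensor EIF2AK3 fell by 1.09 (SE 0.0675), in a list of 22 with 5 higher and 5 lower (1 and 3 without experiment 1). The mean of probe sets gave -0.61 for NFE2L2, -0.73 for MTF1 and -0.44 for EIF2AK3.

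The p53 targets were lower in 29 of 37 and higher in 1 (median -0.42). PPM1D, a phosphatase that turns p53 signalling off, was at 9.67, 9.76 and 8.84 untreated, 10.92, 10.84 and 10.83 at 100 µM and 8.55, 8.49 and 8.28 at 200 µM. The untreated array of experiment 3 lay nearer to the 200 µM arrays than to its own group, and the step of -2.42 (SE 0.149) does not use it. CDKN1A, the cell cycle inhibitor p21, fell by 0.79 (SE 0.0640) from 12.02, 12.04 and 12.15 to 11.31, 11.24 and 11.29. GDF15, a stress cytokine, fell by 0.95 (SE 0.128) and stayed above untreated cells by 1.38. Its step was -0.37 with the mean of probe sets.

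In the list of transcription elongation genes 12 of 26 fell and 1 rose (median -0.14; 3 rose with the replicate block, 4 with quantile normalization repeated and 0 without experiment 2). CCNT2, a cyclin of the elongation kinase P-TEFb, was at 8.35, 8.70 and 8.39 at 100 µM and 6.11, 6.45 and 6.32 at 200 µM, a 4.57-fold fall (-2.19, SE 0.0942, adjusted p = 6.82e-14). Its relative CCNT1 had risen by 0.47 at 100 µM and fell by 0.95 (SE 0.0533) in the step. HEXIM1, which holds P-TEFb inactive, had risen by 1.22 at 100 µM and fell by 0.76 (SE 0.0656), and POLR2A, the large subunit of RNA polymerase II, had risen by 0.98 and fell by 0.82 (SE 0.0854). Both were thus highest at 100 µM among the 4 doses. The step with the mean of probe sets was -1.23 for CCNT2, -0.44 for HEXIM1 and -0.30 for POLR2A. Among 321 ZNF zinc finger genes, most of them DNA-binding repressors, 174 fell and 18 rose (median -0.27), led by ZNF644, ZNF627, ZNF670 (-2.15, SE 0.138, with a 200 µM mean of 5.18) and ZNF367 (-2.03, SE 0.0767). Leaving out 1 array or experiment brought the 18 down to as few as 8. Chromatin regulators were divided, with 19 of 43 lower and 10 higher (median -0.13): the demethylating enzyme TET2 (-1.39), the remodellers CHD9 (-1.33) and CHD2 (-1.29) fell, and HDAC4 rose. CHD9 and CHD2 each had another bright probe set called higher, by 0.30 and 0.83, and with the mean of probe sets their differences were -0.88 and -0.36. That of TET2 was -0.58. In messenger RNA decay 12 of 33 fell and 7 rose, with the decapping factors DCP1B (-1.44, SE 0.0809) and DCP1A (-1.18, SE 0.0599) and the ubiquitin ligase CNOT4 (-1.01) lower. CNOT4 was not called with the mean of probe sets (-0.13). Of splicing genes 8 of 29 fell and 3 rose (5 fell without experiment 2 or 3, 5 rose with the mean of probe sets): the splicing kinase gene CLK4 fell by 0.88 and CLK1 rose by 0.48 (SE 0.0774). The circadian list had 8 of 13 lower and none higher, with RORA first and then CLOCK (-0.84, SE 0.0896) and PER2 (-0.76, SE 0.0478). The mean of probe sets gave -0.39 for CLK4, -0.42 for CLOCK and -0.50 for PER2.

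Ribosomal, respiratory and proteasome genes gave few calls. Of 59 cytosolic ribosomal protein genes 1 fell and none rose (median 0.02), where 9 fell with the mean of probe sets and 6 rose with all 120 arrays in the fit. Of 71 respiratory chain subunits 8 rose and 1 fell (median 0.06), and the count of 8 ranged from 1 to 19 with other choices of arrays. Of 33 proteasome subunits 2 rose and 1 fell. None of them rose without the 100 µM array of experiment 2, 4 rose with the replicate block and 8 with all 120 arrays, and 7 fell with the mean of probe sets. Replication-dependent histone genes rose in 11 of 27 and fell in none (median 0.15, with 4 higher without experiment 2). H2BC21 led (0.82, SE 0.0828, from a 100 µM mean of 5.92). The 100 µM means of H3C7 (5.89) and H2BC3 (5.58) also lay under 6.183, so these sizes are uncertain, while that of H2AC17 was 6.43. H3C7 and H2BC3 each lost the call without experiment 2. Cholesterol synthesis genes rose in 8 of 19 and fell in 1 (5 rose in several fits with 1 array or experiment left out). Among the risers were HMGCS1 (0.53, SE 0.0990, and 0.35 with the mean of probe sets), a synthase of the pathway, and MSMO1 (0.52, SE 0.0561). Hypoxia and glycolysis genes rose in 10 of 29 and fell in 4 (5 rose without experiment 1, 2 fell without experiment 3). ANKRD37 was at 0.93 (SE 0.143), and the glucose transporter genes SLC2A3 at 0.69 and SLC2A1 at -0.57. In the same order the mean of probe sets gave 0.54, 0.44 and -0.30.

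Cell cycle and repair lists held calls in both directions. Of 24 G1 genes 10 fell and 4 rose, where 8 rose with the replicate block, 9 with all 120 arrays and 7 with quantile normalization repeated. E2F3, an activator of S phase genes, went from 9.71, 9.73 and 9.79 to 7.49, 7.65 and 7.41 (-2.23, SE 0.0688, adjusted p = 7.72e-16), and its repressive relative E2F7 fell by 1.97 (SE 0.0614). CCNE1, cyclin E1, fell by 1.17 (SE 0.0537), in a replication list of 39 with 13 lower and 5 higher (3 higher without experiment 2). The mean of probe sets gave -1.45 for E2F3, -1.11 for E2F7 and -0.56 for CCNE1. PRIM2, a primase subunit spanning 425311 bp, rose by 0.96 (SE 0.0610). Mitosis genes, 27 of 37 of which were lower at 100 µM than untreated, had 9 higher and 5 lower in the step (median -0.0022), which became 3 and 3 without experiment 1. Among Fanconi and crosslink repair genes, which undo DNA crosslinks, 8 of 26 fell and 9 rose (3 rose without experiment 2, 4 with the mean of probe sets). PALB2, the partner of BRCA2, fell by 1.46 (SE 0.0536, adjusted p = 7.47e-15) and FANCF, of the Fanconi core complex, by 0.95 (SE 0.103). REV3L, a subunit of the bypass polymerase zeta, fell by 0.82 by its brightest probe set, while its other bright probe set rose by 1.10. Of 11 tested genes of formaldehyde metabolism 4 rose and 1 fell (2 rose without experiment 1), and ADH5, the main formaldehyde-oxidizing enzyme, was at means of 11.16 and 11.05 (-0.11, SE 0.0441, adjusted p = 0.0654).

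In the survival and immune lists, apoptosis regulators were lower in 11 of 26 and higher in 3 (1 without the 100 µM array of experiment 1, 5 with quantile normalization repeated). The death-promoting BCL2L11 was at -0.98 (SE 0.0796), and the death-blocking BCL2 at -0.84 (SE 0.0528) and XIAP at -0.63 (SE 0.0800). These falls rest on the brightest probe set. The mean of probe sets gave -0.25 for BCL2L11, -0.17 for BCL2 and -0.24 for XIAP. NF-kappaB targets were lower in 12 of 27 and higher in 5 (8 with the replicate block). REL, a subunit of NF-kappaB, fell by 1.41 (SE 0.0792) and TNFAIP3, its inhibitor, by 1.13 (SE 0.0595). Their differences were -0.86 and -1.14 with the mean of probe sets. B cell genes were higher in 8 of 27 and lower in 2 (5 higher without experiment 1, none lower without experiment 3). PAX5, the factor that holds B cell identity, spans 201000 bp and was at 11.62, 11.59 and 11.56 untreated, 10.79, 10.78 and 10.73 at 100 µM and 11.41, 11.43 and 11.38 at 200 µM (step 0.64, SE 0.0596). The plasma cell factor IRF4, a short gene of 19692 bp, fell by 1.15 (SE 0.0576) and PRDM1 by 0.86 (SE 0.107). The mean of probe sets gave 0.36 for PAX5, -0.43 for IRF4 and -0.39 for PRDM1. Markers of other cell types gave few calls, none of them downward: 1 of 10 for T and NK cells (NKG7, 0.28), 1 of 7 for epithelial cells and fibroblasts (CDH1, 0.31), 1 of 5 for red blood cells (HBD, 0.32) and 0 of 5 for monocytes and granulocytes. The T and NK cell call and that for red blood cells were each lost when 1 array or experiment was left out, among them the 100 µM array of experiment 2. The mean over the B cell list was 9.35 to 9.44 at 100 µM and 9.56 to 9.62 at 200 µM, against 9.61 to 9.65 in untreated cells.

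Taking untreated cells into account, 1884 genes turned, being called one way from untreated to 100 µM and the other way from 100 to 200 µM. Both comparisons use the 100 µM arrays, so noise in those arrays favours such a count. At 100 µM 40.7% of tested genes were called against untreated (20.9% higher, 19.8% lower), and at 200 µM 53.8% (29.6% higher, 24.2% lower). Of the turning genes, 768 were up at 100 µM and lower in the step. At 200 µM 119 of these were still above untreated, 298 were below it and the others were not called. Of the 767 with a length, 7 (0.913%) were over 150 kb, and 48 of the 768 were ZNF genes. The other 1116 were down at 100 µM and higher in the step, and 44.2% of them were over 150 kb. At 200 µM 466 of these were still below untreated, 581 were not called and 69 were above it. Without experiment 1 the turning genes numbered 1164 (439 and 725), and the calls at 100 µM 3737. Without the untreated array of experiment 3 they numbered 1868.

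Outside the p53 and ATF4 lists, downward turns taken by the naming rule, which ranks by the smaller of both changes, included N4BP2L1 and GCNA. N4BP2L1 was at 7.64, 7.61 and 7.84 untreated, 10.15, 9.88 and 10.01 at 100 µM and 8.17, 8.10 and 7.92 at 200 µM. Of its 6 bright probe sets 4 were called lower in the step, but the next brightest rose from 7.99 to 8.69, and with the mean of probe sets the difference was -0.47 in place of -1.95. GCNA, a protein known for its part in resolving DNA-protein crosslinks in germ cells, went from 6.04, 5.80 and 5.70 to 7.77, 7.28 and 7.46 and then to 5.87, 5.80 and 5.81, with its untreated and 200 µM arrays under 6.183. The decoy receptor gene TNFRSF10D, known as a p53 target though not in the list used, fell by 1.25 (SE 0.0961) after 1.81. The 6 upward turns taken by the same rule were MAML2, EBF1, ZRANB3, MBD5, KCNQ5 and EPHA3, all over 300 kb; all but EBF1 lay under 6.183 at 100 µM in the mean, so their sizes are uncertain.

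At 24 h the same dose step went the other way for many of these genes, in arrays that share nothing with the 4 h step. There, 42.8% of tested genes were called (20.5% higher, 22.2% lower). Of the 2450 genes lower at 4 h, 1002 (40.9%) were higher in the step at 24 h and 456 (18.6%) lower. Of the 2438 genes higher at 4 h, 964 (39.5%) were lower at 24 h and 425 (17.4%) higher. Pearson's r between both steps across 14023 genes, which are not independent replicates, was -0.24 and Spearman's rho -0.22. The difference between the steps was itself called in 46.1% of genes (22.3% higher and 23.8% lower at 24 h).

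PPM1D was at 9.97, 10.18 and 10.06 at 100 µM and 11.97, 11.84 and 12.01 at 200 µM after 24 h, a step of 1.87 where that at 4 h was -2.42. MED26 had a step of 0.62 at 24 h, from 10.82, 10.84 and 10.85 to 11.47, 11.38 and 11.52, so its low level was seen at 4 h and not at 24 h. KCNQ5 was at 7.60, 7.72 and 7.41 at 100 µM and 5.55, 5.74 and 5.09 at 200 µM after 24 h, a step of -2.12 where that at 4 h was 1.37. The short risers kept their direction in part: CCNG2 had a step of 1.46 at 24 h, JUN of 1.22, RGS1 of 0.90 and HES1 of 0.95. CD69 did not, with a step of -0.67 at 24 h. Of the 11 short genes, 9 were higher in the 24 h step and 1 lower, and of the 39 long genes 7 were higher and 18 lower.

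**Figure D4:**
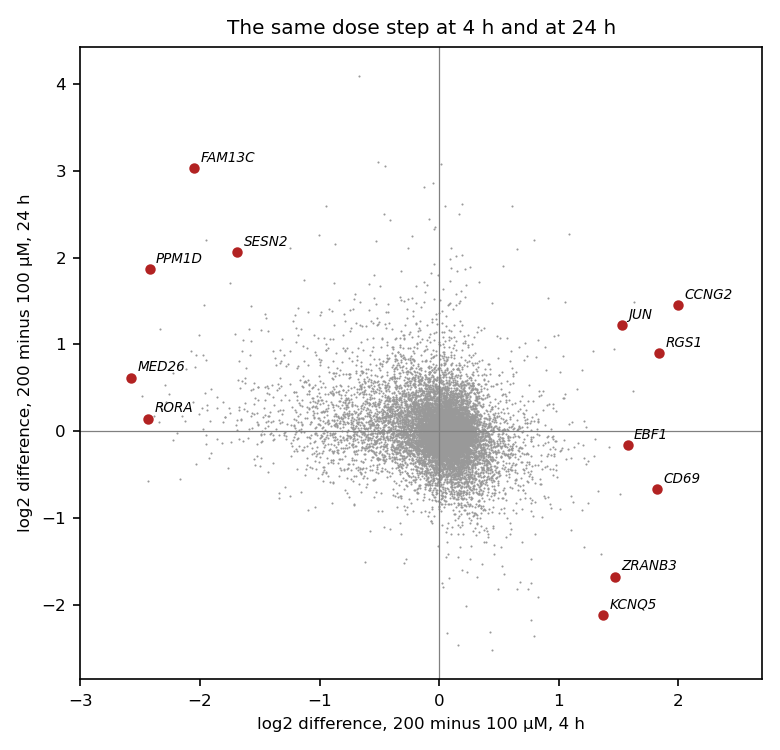
Log2 difference between 200 and 100 µM formaldehyde at 4 h (x axis) and at 24 h (y axis), 1 grey point per gene for 14023 genes, with 12 named genes in red. PPM1D, SESN2 and FAM13C lie low at 4 h and high at 24 h, KCNQ5 and ZRANB3 the reverse, and CCNG2, JUN and RGS1 are above 0 on both axes.

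A doubling of MMS, from 160 to 320 µM at 4 h, changed far fewer genes: 3.43% of tested genes were called (1.98% higher, 1.45% lower). The labels do not say whether these doses match those of formaldehyde in effect. The difference between the formaldehyde and the MMS step was called in 28.4% of genes (12.2% higher, 16.2% lower). MED26 moved by 0.03 in the MMS step and MSL2 by 0.03, against -2.57 and -2.48. EBF1 moved by -0.46 with MMS against 1.58 with formaldehyde. In genes of 200 to 300 kb the MMS step had a median of -0.0924, with none of 431 higher and 19 lower. CTH rose by 1.08 with MMS and fell by 1.58 with formaldehyde, while DNAJB4 rose in both (0.81 and 0.88).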

How the data were processed

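RNA of TK6 cultures was measured on HG-U133 Plus 2 arrays, 3 per group. The deposited values are log2 signals per probe set made by the authors with RMA, per the submitters' processing notes; its version and the set of arrays normalized jointly are not given in the sources used here. Array medians lay between 6.133 and 6.243. Of 54675 probe sets (62 controls), 41097 named 1 gene, 1801 several and 11721 none in the platform table, and only the first were used. Each gene took its brightest probe set, and 14023 of 19775 genes, with at least 3 arrays at or above 6.183, were tested. Listed genes without such a probe set were not analysed here.

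limma 3.58.1 in R 4.3.3 (with data.table, version 1.17.8) fitted 8 group means to the 24 formaldehyde arrays, with no block, and 16 to the 48 formaldehyde and MMS arrays. Two-sided moderated tests were adjusted by Benjamini and Hochberg over all tested genes. The labels number experiments 1 to 3 without naming shared cultures, so p-values measure the spread between these arrays. Deviations of same-numbered arrays at 100 and 200 µM correlated at 0.12, 0.15 and 0.30 (mean -0.09 for other numbers), each over 0.1. A block on the number was therefore fitted as an alternative, with 5462 genes called against 4888. The main fit, with its SEs and p-values, does not use this pairing. On simulated data for the 200 against 100 µM comparison, 92% of changes of 0.5 log2 and 99% of changes of 1 log2 were recovered over 14023 genes, and 5.45% of calls were false. The simulation changed 200 genes and drew the noise of each array independently, so it does not give the false share of the real calls.

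Named genes are the 12 largest rises and falls of the same sign in all experiments (p53 list left out), up to 4 called genes per list, the 6 clearest turning genes each way, a panel of 13, and the 5 largest differences each way between times and between chemicals. The comparison, its members and the lists were chosen with earlier results of these data known. Gene lengths (14007 genes) and promoters (144 of 161 named genes) come from RefSeq, GRCh38.p14. Motifs and figures used Python 3.11.15 with pandas 2.3.3 and matplotlib 3.10.9. Alternatives were a replicate block, other arrays in the fit, no filter, the mean of probe sets, repeated quantile normalization and leaving out arrays or experiments.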

Additional observations from a re-analysis of the deposited data

Results flagged for a closer look

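The dose step from 100 to 200 µM formaldehyde differed between times and between chemicals for many genes, by a test of the difference itself in limma. The step at 24 h minus the step at 4 h was called in 6469 genes. Large positive differences were those of FAM13C (5.08), CYP4F3, a lipid-oxidizing cytochrome (4.77), PPM1D (4.29), N4BP2L1 (4.16) and SESN2, a stress sensor (3.75). All of them were lower at 200 than at 100 µM at 4 h and higher at 24 h. All 4 h arrays of CYP4F3 at 100 and 200 µM lay under 6.183, the level used to filter dim genes, and so did the 4 h mean of FAM13C at 200 µM (4.58), so these sizes are uncertain. Large negative differences were those of KCNQ5 (-3.49), EPHB1, an ephrin receptor gene (-3.15), ZRANB3 (-3.14), CHL1, an adhesion molecule gene (-2.97), and WDR72 (-2.94). At 4 h and 100 µM the means of KCNQ5 (5.71), ZRANB3 (5.17) and WDR72 (5.13) lay under that level. The 4 h step of CHL1 had an adjusted p of 0.0662, and of 0.0451 with the replicate block.

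The formaldehyde step minus the MMS step at 4 h was called in 3980 genes. RGS1 (2.25), EBF1 (2.04), MBD5 (1.98), MAML2 (1.95) and EPHA3 (1.94) stood on the positive side. On the negative side were CTH (-2.67), PPM1D (-2.66), EPC1 (-2.63), MED26 (-2.60) and MSL2 (-2.51). The causes of these differences were not tested.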

How the results depend on the processing

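With the experiment number as a replicate block, 5462 genes were called between 200 and 100 µM at 4 h against 4888 without it, and the block moved no comparison's count of calls by over 1.5 times, but raised list counts such as that of G1 genes (4 to 8 higher). The 2-fold count was 390 and became 200 with the mean of a gene's probe sets. The median of the longest of 5 equal length bands was 0.15, and became 0.1349 with the mean of probe sets, 0.111 without a filter on dim genes and 0.1643 with quantile normalization repeated. Leaving out arrays or experiments gave 2217 to 3427 genes between 100 and 50 µM, 3737 to 5286 between 100 µM and untreated, and 1164 to 1789 turning genes, 1868 without the untreated array of experiment 3. REV3L changed sign with the mean of probe sets (0.1381). Of 2411 values for the named genes under an alternative, 2322 kept their direction and side of the threshold, 79 lost the call and 9 gained it. Most of these genes were named for called differences in the same arrays, which favours such a count. For all genes called higher, 960 of 2662 other bright probe sets were called higher too and 120 lower. For all genes called lower, 1216 of 2625 were called lower too and 103 higher. Bands of length, and the leave-outs of single arrays for turning genes, were chosen after seeing the data. Precision rests on 3 arrays per dose.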
